A study of Mus musculus with 12 samples.

Results

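The variable (V) segments of the immunoglobulin light chains were examined in RNA from mature B cells that reside in the bone marrow of the mouse. A segment was taken as a member when its Entrez number mapped to a symbol that starts with Igkv (kappa) or Iglv (lambda) and it had 10 or more reads over all libraries. This gave 106 members among the 27179 genes of the table, of which 103 were Igkv and 3 were Iglv. The measure used throughout is usage, the share of a segment in all reads that fell on the 106 segments of a library, in percent.

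There were 4 groups of 3 libraries, 12 in all, from C57BL/6 mice, sorted as B220 high, IgM+ and CD93-. The wild-type groups were young (9, 10 and 11 weeks of age) and old (98, 99 and 100 weeks). The other 2 groups were 10 weeks old and shared a loss of Bak (Bak-/-), a protein that permeabilises mitochondria in apoptosis. The apoptosis-sensitive group also carried the floxed but intact allele of its partner Bax (Bak-/- Bax fl/fl), and in the apoptosis-resistant group Bax was deleted (Bak-/- Bax D/D). The Cre line behind that deletion is not given in the sources used here, nor whether a library came from 1 mouse or a pool. Same-numbered young and old libraries were collected on the same day, as were same-numbered sensitive and resistant libraries. The sensitive and young groups shared no collection day, so day and genotype cannot be told apart between them.

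A light chain gene is assembled in each developing B cell by the RAG1 and RAG2 recombinase, which joins 1 V segment to a J segment that is then spliced to a constant region. Kappa is usually tried first and lambda after kappa rearrangements fail, so most mouse B cells carry kappa. A cell as a rule uses 1 light chain, and all descendants of that cell share its V segment. V segment reads in bulk RNA therefore weight each cell by its light chain RNA, and antibody-secreting cells hold far more of it than resting B cells. In bulk samples such as these, fewer cells with a segment and less RNA of that segment per cell cannot be told apart.

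The kappa members lie on chromosome 6, from 18.7 to 3167 kb away from the first joining segment Igkj1, and the 3 lambda members on chromosome 16. The sequences on which the results turn are from the coding part of the main V exon in GENCODE M21 (build GRCm38, minus strand for each segment shown, 5′ to 3′), at most the first 300 bases of it. Capitals mark bases that differ from the most similar member named with each, so that a reader can see what a sequencing read has to resolve. Iglv1 (chr16:19085022-19085321) and Iglv2 (chr16:19260406-19260705) differ from each other at 9 of 305 bases, an identity of 97.05%. The coding part of Iglv3 (chr16:19241231-19241530) is 324 bases long and only 56.89% identical to Iglv1, so it is shown without capitals.
Iglv1: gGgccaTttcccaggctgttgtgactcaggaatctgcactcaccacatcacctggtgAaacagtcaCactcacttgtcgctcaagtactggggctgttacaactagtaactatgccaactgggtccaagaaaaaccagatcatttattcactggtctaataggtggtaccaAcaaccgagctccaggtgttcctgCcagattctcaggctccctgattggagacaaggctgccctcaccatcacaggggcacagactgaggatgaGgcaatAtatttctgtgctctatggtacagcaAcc
Iglv2: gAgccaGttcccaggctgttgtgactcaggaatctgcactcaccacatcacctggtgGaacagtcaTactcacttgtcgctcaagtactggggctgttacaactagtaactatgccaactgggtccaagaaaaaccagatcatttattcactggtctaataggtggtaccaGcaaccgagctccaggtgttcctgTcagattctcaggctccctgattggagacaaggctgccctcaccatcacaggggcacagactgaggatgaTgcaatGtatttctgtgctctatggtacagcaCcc
Iglv3: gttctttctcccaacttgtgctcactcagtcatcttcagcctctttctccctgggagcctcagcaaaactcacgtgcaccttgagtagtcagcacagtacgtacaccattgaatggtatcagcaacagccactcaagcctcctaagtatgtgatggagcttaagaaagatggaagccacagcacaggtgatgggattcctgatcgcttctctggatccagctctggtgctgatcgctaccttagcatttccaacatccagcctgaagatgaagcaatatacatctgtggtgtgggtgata

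The next 3 kappa segments were those whose usage passed the test between old and young mice. Igkv5-39 (chr6:69900424-69900721) is set against Igkv5-45 (91.61% identity), and Igkv12-46 (chr6:69764523-69764820) against Igkv12-41 (94.97%). Igkv6-20 (chr6:70335841-70336138) is set against Igkv6-29, from which it differs at 5 of 298 bases (98.32%). The last, Igkv8-28 (chr6:70143609-70143908), held the highest kappa share of any library and differs from Igkv8-19 at 7 of 316 bases (97.78%), 6 of them in the stretch shown.
Igkv5-39: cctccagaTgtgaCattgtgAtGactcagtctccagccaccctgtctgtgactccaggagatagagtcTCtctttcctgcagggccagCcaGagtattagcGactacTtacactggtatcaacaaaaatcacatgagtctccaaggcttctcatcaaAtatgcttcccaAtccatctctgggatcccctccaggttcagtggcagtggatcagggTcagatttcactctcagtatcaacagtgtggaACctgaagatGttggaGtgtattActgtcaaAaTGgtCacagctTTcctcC
Igkv6-20: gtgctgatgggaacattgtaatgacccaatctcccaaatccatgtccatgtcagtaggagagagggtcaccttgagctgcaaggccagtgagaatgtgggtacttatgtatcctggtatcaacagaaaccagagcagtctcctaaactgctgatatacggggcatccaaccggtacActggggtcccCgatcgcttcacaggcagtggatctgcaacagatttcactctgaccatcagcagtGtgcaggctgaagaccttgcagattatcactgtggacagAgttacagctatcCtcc
Igkv12-46: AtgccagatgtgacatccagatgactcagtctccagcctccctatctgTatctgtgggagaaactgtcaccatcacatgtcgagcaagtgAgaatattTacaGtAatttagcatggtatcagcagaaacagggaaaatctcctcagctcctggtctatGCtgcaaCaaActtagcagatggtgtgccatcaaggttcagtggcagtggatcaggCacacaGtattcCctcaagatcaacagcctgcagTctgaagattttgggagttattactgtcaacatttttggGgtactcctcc
Igkv8-28: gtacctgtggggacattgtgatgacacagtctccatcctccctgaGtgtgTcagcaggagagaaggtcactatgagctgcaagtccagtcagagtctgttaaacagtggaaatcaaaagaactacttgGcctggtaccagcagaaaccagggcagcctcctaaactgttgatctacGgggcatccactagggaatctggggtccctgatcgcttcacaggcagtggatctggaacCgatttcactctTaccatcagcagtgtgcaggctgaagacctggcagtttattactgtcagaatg

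How reads with several equally good positions were counted is not given in the sources used here, so the division of reads between near-identical segments is uncertain. Of the 105 members matched to GENCODE, 89 had more than 50% of their 50-base words unique among the members and 24 had all of them unique. For Igkv6-20 the unique share was 35.9%, and its near-copy Igkv6-29 held at most 0.137% of the reads of any library. Over the 105 members, mean usage and the unique share had a Spearman rho of -0.09, given as a description since the segments share libraries.

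Total counts per library ran from 13474162 to 23539764, and the segments took 11041 to 62180 reads, which was 0.082% to 0.325% of the counts. On the CPM scale, a share of the library's counts after trimmed-mean (TMM) scaling, the summed segments were at 907, 1750 and 2079 in the young libraries. They were at 855, 3181 and 1492 in the old, 1854, 1625 and 1573 in the sensitive and 1747, 1924 and 2049 in the resistant libraries. The lowest values were those of young 1 and old 1, the pair collected on 24 March, and the highest was old 2. Bax was at 4.96 to 8.36 CPM in the resistant libraries against 44.2 to 100 CPM elsewhere, and Bak1 was at 6.17 to 14.4 CPM in both Bak-/- groups against 24.7 to 47.9 CPM in wild type. Summed markers of mature B cells (8 genes) were at 15502 to 22341 CPM, and those of precursor B cells (8 genes) at 16.6 to 74.3 CPM, so the labelled cell type was the one whose markers were high.

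In all 12 libraries, usage was spread over most of the segments but led by a few. Between 103 and 106 members had reads in each library, and 102 members were detected in every one. At an equal depth of 11041 reads, 102 to 105 members were expected to be seen, so the libraries differed little in how many segments they held. Of the members, 32 had a mean share of at least 1% and 21 had under 0.1%. The 10 highest segments of each library together took 39.5% to 60.4% of its reads.

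By mean share over the 12 libraries the highest member was the lambda segment Iglv3 (11.4%), followed by Iglv1 (6.82%), Igkv1-117 (4.05%) and Iglv2 (4.01%). Per length the order of the first 3 was Iglv3, Iglv1 and Iglv2. The kappa segments next in mean share were Igkv10-96 (3.40%), Igkv1-110 (3.36%), Igkv1-135 (2.91%), Igkv19-93 (2.76%) and Igkv17-127 (2.35%). Igkv14-111 (2.08%), Igkv6-15 (2.07%), Igkv8-28 (1.89%) and Igkv3-2 (1.86%) completed the 10 highest kappa members. Igkv1-117 lay between 2.21% in old 2 and 5.19% in sensitive 2. Igkv10-96 lay between 2.55% and 4.91% and Igkv1-110 between 2.53% and 4.37%. Neighbours in this order did not separate: the ranges of Igkv10-96, Igkv1-110 and Igkv1-135 (1.40% to 4.44%) overlapped.

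Grouped by family, the 28 Igkv4 members took 12.5% of the reads on average, the 10 Igkv1 members 12.1%, the 9 Igkv6 members 8.84% and the 11 Igkv8 members 6.88%. The Igkv4 share was 9.67% ± 0.385 in resistant cells (SD, n = 3) and 14.9% ± 6.38 in sensitive cells, where 1 library reached 22.3%. The Igkv1 share was 12.4% ± 1.53 in young, 9.51% ± 1.75 in old, 13.3% ± 2.23 in sensitive and 13.1% ± 1.83 in resistant cells. A family of many members was thus not used in proportion to its number of members.

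**Figure D1:**
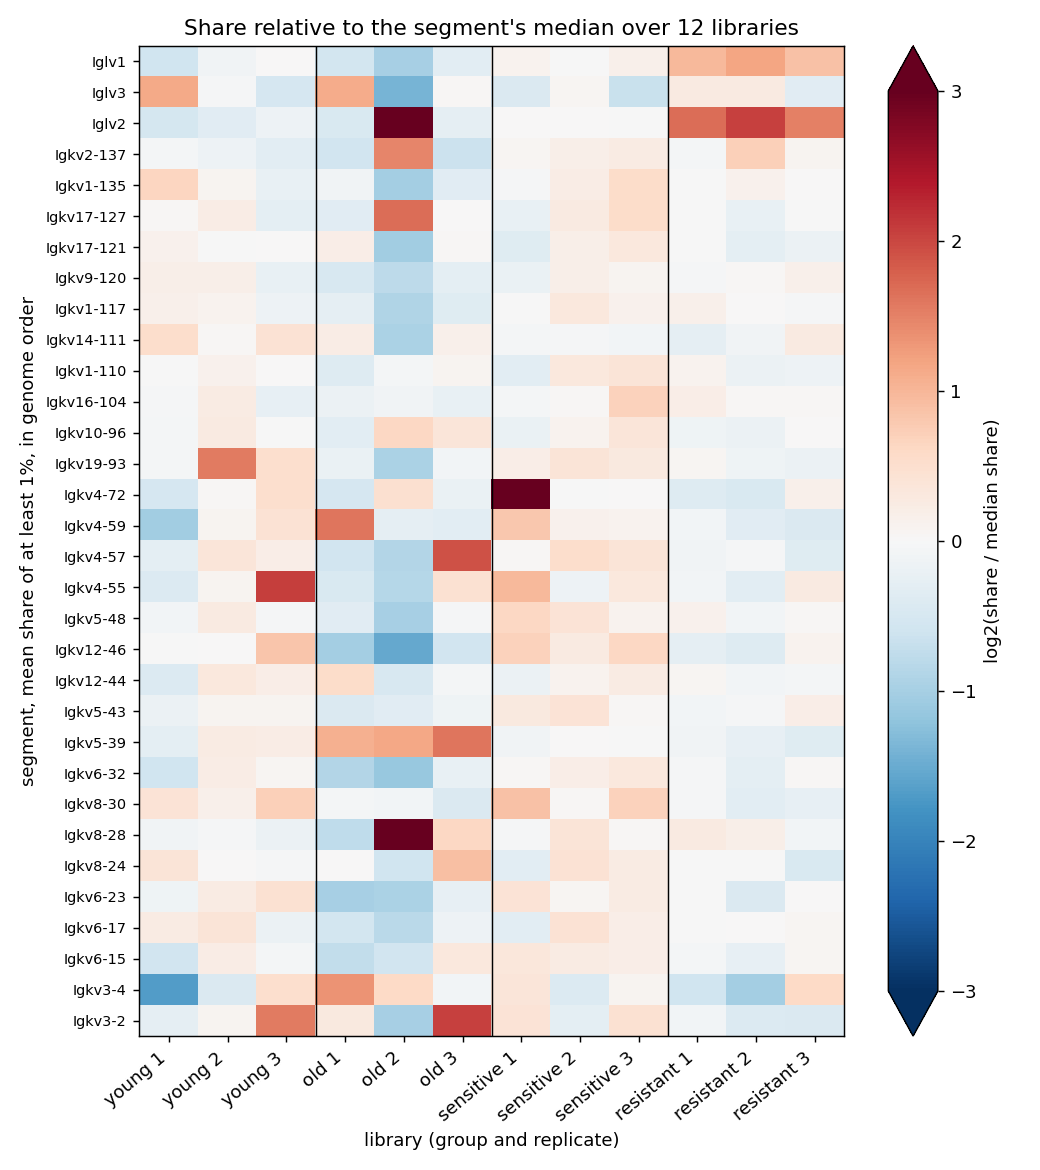
Usage of the 32 segments with a mean share of at least 1%, in genome order within each chromosome (rows), in each of the 12 libraries (columns), as log2 of the share over the segment's median share. Colours saturate at 3 in either direction. Iglv1 and Iglv2 are high in the 3 resistant libraries, Igkv5-39 in the 3 old libraries, and single dark cells mark Iglv2 and Igkv8-28 in old 2 and Igkv4-72 in sensitive 1.

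The comparison of the resistant with the sensitive cells asks what the loss of Bax on a Bak-/- background changed in light chain usage. Lambda segments took a larger share of the reads in resistant cells. The lambda share was 30.2%, 33.9% and 24.5% in the resistant libraries and 16%, 18.5% and 15.0% in the sensitive libraries. All 3 resistant libraries were above all 3 sensitive libraries. By counting error alone, the 95% Wilson interval of the lowest resistant library was 24.1% to 24.9% and that of the highest sensitive library 18.1% to 19.0%. These intervals take each read as independent and leave out the spread between libraries. The reads carried no molecular identifiers, so repeat copies of a molecule count as separate reads.

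As a ratio, kappa to lambda reads were 5.25, 4.39 and 5.67 in the sensitive libraries (5.10 ± 0.651, SD, n = 3) and 2.32, 1.95 and 3.09 in the resistant libraries (2.45 ± 0.581). The groups did not overlap, and the log2 ratio was -1.08 in resistant against sensitive cells. The exact two-sided permutation test gave p = 0.10, the smallest value that 3 against 3 libraries allow. Within the 3 collection days the log2 difference was -1.18, -1.17 and -0.88, lower in 3 of 3 pairs. The sign-flip test over the pairs gave an exact p of 0.25, again the smallest possible.

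Most of the shift lay in Iglv1 and Iglv2, the near-identical pair shown above, whose mean shares were 5.75 and 4.47 percentage points higher in resistant cells, against 2.77 points for Iglv3. Iglv1 held 6.37%, 5.81% and 6.58% of the reads in the sensitive and 11.7%, 13.5% and 10.9% in the resistant libraries. The groups did not overlap, and the resistant libraries were the 3 highest of all 12. Iglv1 usage was 0.94 ± 0.21 higher on the log2 scale (SE), with an adjusted p of 0.213 by edgeR's quasi-likelihood test, which did not pass. With the collection day as a block the adjusted p was 0.0146 (log2 0.94 ± 0.16), and DESeq2 gave an adjusted p of 0.00616.

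Iglv2 held 1.88%, 1.87% and 1.85% in the sensitive libraries and 5.92%, 7.77% and 5.32% in the resistant libraries. The sensitive values were nearly equal and every resistant value was well above them. The fitted log2 difference was 1.76 ± 0.73 with an adjusted p of 0.920. This SE pools the spread of all 12 libraries, and old 2 held Iglv2 at 16.1% where the other wild-type libraries held 1.3% to 1.69%. In CPM, Iglv1 was at 105 ± 12.0 in sensitive and 229 ± 28.1 in resistant cells (n = 3 each), and Iglv2 at 31.5 ± 3.1 and 121 ± 25.2.

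Iglv3, the lambda segment of unlike sequence, held 7.75%, 10.9% and 6.56% in the sensitive and 12.6%, 12.6% and 8.26% in the resistant libraries. Here the groups overlapped, although the resistant library was higher in 3 of 3 pairs, by 4.84, 1.78 and 1.69 points. The log2 difference was 0.41 ± 0.54 (adjusted p = 1.0). Without Iglv3 the kappa to lambda ratio was 10.2, 10.6 and 10.1 in sensitive and 3.97, 3.11 and 4.66 in resistant cells. The log2 difference was then -1.41, larger than with all 3 lambda members.

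The constant regions, counted as separate genes, gave a lower kappa to lambda ratio in resistant cells as well. Constant region and V segment reads did not go together in every library. In old 1 the ratio was 0.978 from constant regions and 2.58 from V segments. Iglv2 was at 11.5 CPM in old 1 and 513 CPM in old 2, while Iglc2 was at 396 and 399 CPM. The ratio of Igkc to the sum of Iglc1, Iglc2 and Iglc3 was 4.17, 4.05 and 3.43 in sensitive and 2.41, 2.13 and 2.68 in resistant cells. The groups did not overlap, and the log2 difference was -0.69 (exact permutation p = 0.10). Of the CPM of the constant regions in the fit across all genes, none passed, Igkc at -0.23 ± 0.46 and Iglc2 at 0.51 ± 0.27 on the log2 scale.

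**Figure D2:**
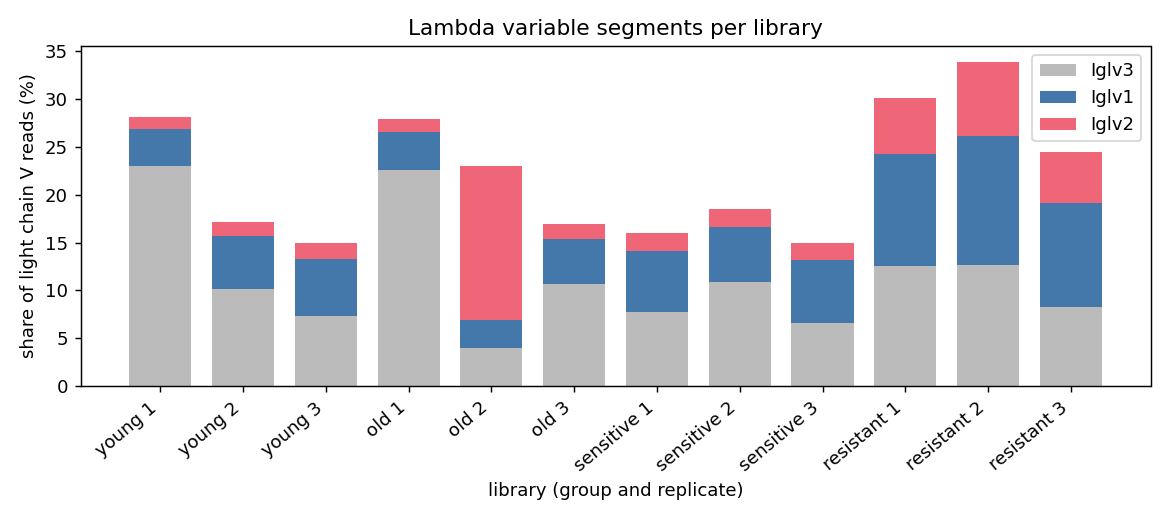
Share of light chain V reads taken by Iglv3, Iglv1 and Iglv2 (stacked bars, percent) in each of the 12 libraries. The resistant libraries hold more Iglv1 and Iglv2 than the sensitive ones, young 1 and old 1 hold 23.0% and 22.6% of Iglv3, and old 2 holds 16.1% of Iglv2.

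**Figure D3:**
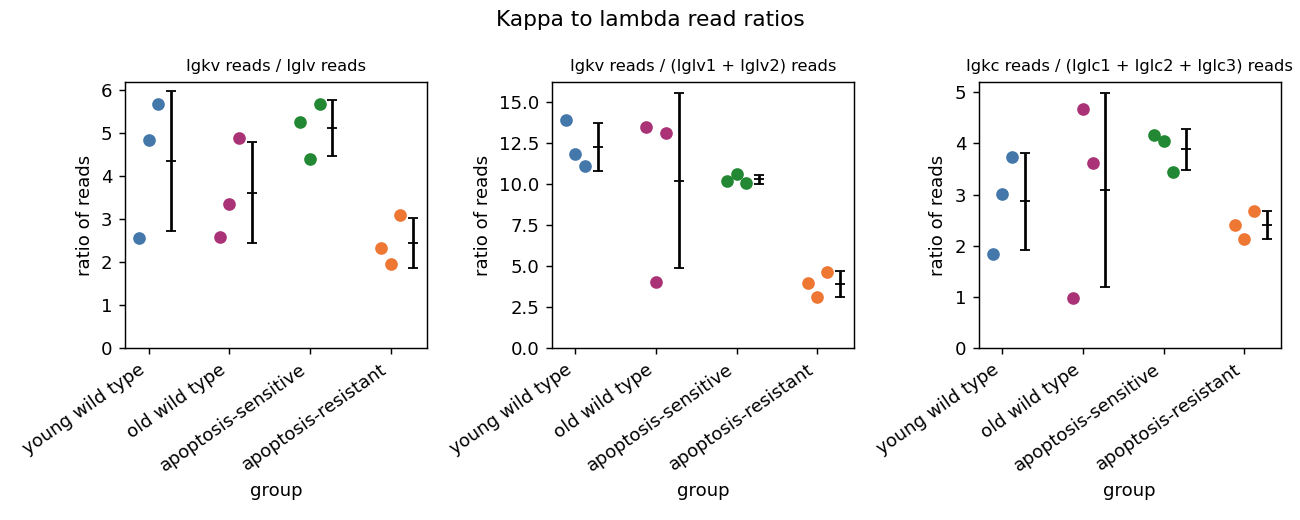
Kappa to lambda read ratios in each library (points) with the group mean and SD (bars, n = 3), over all V segments (left), without Iglv3 (centre) and from the constant regions (right). Resistant libraries lie below sensitive libraries in each panel, and the wild-type groups overlap in each.

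No segment passed the test between resistant and sensitive cells: 0 of 101 tested members, beside 0.0441% of all 13592 genes tested. At an unadjusted p under 0.05 there were 7 members, or 6.93%, beside 4.90% of all genes. DESeq2 called 1 member, Iglv1, beside 1% of all genes. With the collection day as a block, 2 members passed beside 3.4% of all genes: Iglv1 upward and Igkv12-46 downward (log2 -0.71 ± 0.13, adjusted p = 0.0141). The ranges of the groups did not overlap in the higher direction for 4 members (Iglv1, Iglv2, Igkv4-69 and Igkv8-19), beside 6.31% of all genes. In the lower direction they did not overlap for 14 kappa members, which is 13.9% of those tested, beside 8.36% of all genes. The median log2 difference was -0.19 over the members and -0.02 over all genes tested. It was -0.02 over the members with TMM factors over the segments, and 0.06 when kappa segments were taken as shares of kappa reads.

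Since a larger lambda share lowers every kappa share, kappa segments were also read as shares of kappa reads alone. Then 2 of 98 kappa members (Igkv12-89 and Igkv12-46) lay lower without overlap and 5 lay higher, so most of the 14 lower ranges were not seen on this scale. Igkv8-30 held 1.73%, 0.959% and 1.52% of all V reads in sensitive and 0.920%, 0.749% and 0.792% in resistant cells (log2 -0.77 ± 0.24, adjusted p = 0.507). The log2 difference of Igkv4-58 was -1.06 ± 0.41 (adjusted p = 0.832).

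The remaining named segments of low p followed 1 library each. Igkv4-72 held 10.3% in sensitive 1 and 0.630% to 1.27% in the other 11, and its log2 difference of -2.37 ± 0.80 (adjusted p = 0.595) was -0.21 without sensitive 1. Igkv1-122 held 4.02% in resistant 3 and 0.146% to 0.600% elsewhere, and its log2 difference of 2.0 ± 0.76 (adjusted p = 0.792) was 0.01 without resistant 3. In each case the other libraries of the group lay among those of the group compared.

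Among the genes that build the light chain, 17 of the 18 listed constant, joining, surrogate light chain and recombinase genes were tested and 0 passed in any comparison. In resistant against sensitive cells 1 of these 17 had an unadjusted p under 0.05. Rag1, a recombinase subunit, was at 15.3, 13.6 and 3.55 CPM in the sensitive and 46.3, 26.2 and 28.8 CPM in the resistant libraries. The groups did not overlap, and the log2 difference was 1.64 ± 0.72 (adjusted p = 0.998). Rag2 was at 0.37 to 1.82 CPM in these 6 libraries, and the surrogate light chain genes Vpreb1 and Igll1 at 0.19 to 1.52 CPM. The precursor B cell markers, Rag1 among them, summed to 43.8 to 58.7 CPM in sensitive and 48.6 to 74.3 CPM in resistant cells. Members of this list went both ways. Cd93 was at 31.3 to 33.1 CPM in sensitive and 16.1 to 21.1 CPM in resistant cells. Il7r was at 2.76 to 4.00 and 1.86 to 2.06 CPM, lower in resistant cells where Rag1 was higher. The plasma cell markers summed to 735 to 1047 and 739 to 932 CPM. The part of precursor and plasma cell genes in the lambda shift was not tested.

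In old against young wild-type mice, 3 of 101 segments changed in usage: Igkv5-39 and Igkv6-20 rose and Igkv12-46 fell. Of all genes tested, 2.05% were called in either direction, 1.73% higher and 0.316% lower, so the number of segments called was close to the background. At an unadjusted p under 0.05 there were 22 members, or 21.8%, beside 11.7% of all genes. The median log2 difference was -0.30 over the members and -0.03 over all genes. The members' median turned to 0.07 with TMM factors over the segments in place of the V total, so it gives no direction for the segments as a whole.

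Igkv5-39 held 0.833%, 1.21% and 1.19% of the V reads in young and 2.12%, 2.29% and 3.11% in old libraries. The old libraries were the 3 highest of all 12, since the sensitive and resistant libraries lay between 0.799% and 1.02%. The rise was 1.21 ± 0.20 on the log2 scale, with an adjusted p of 0.0117 by edgeR. It passed without each of the 6 wild-type libraries in turn, with adjusted p between 0.0168 and 0.0460. All 50-base words of Igkv5-39 were unique among the members.

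Igkv6-20 held 0.453%, 0.741% and 0.777% in young and 1.16%, 1.65% and 2.86% in old libraries, without overlap. The rise was 1.51 ± 0.33 with an adjusted p of 0.0382. It passed in 1 of the 6 fits that left out a library, the one without old 1, and otherwise had adjusted p up to 0.126. Igkv12-46 held 1.38%, 1.40% and 2.48% in young and 0.687%, 0.482% and 0.940% in old libraries, again without overlap. The fall was -1.33 ± 0.30 with an adjusted p of 0.0462, and it passed without young 1 or old 3 but not without any of the other 4 libraries (adjusted p up to 0.163).

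The 3 next segments did not pass. Igkv6-23 held 1.36%, 1.75% and 2.03% in young and 0.744%, 0.767% and 1.25% in old libraries (log2 -0.90 ± 0.25, adjusted p = 0.0973). Igkv19-93 held 2.25%, 6.87% and 3.33% in young and 2.05%, 1.21% and 2.20% in old libraries (log2 -1.20 ± 0.35, adjusted p = 0.124). Igkv12-41, the nearest relative of Igkv12-46, held 0.580%, 0.815% and 1.03% in young and 0.441%, 0.306% and 0.530% in old libraries (log2 -0.94 ± 0.28, adjusted p = 0.128). In none of the 3 did the ranges overlap, though for Igkv19-93 young 1 lay just above old 3.

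With the collection day as a block 11 of 101 members passed, 2 upward and 9 downward. In that fit 14.9% of all genes passed, 7.88% upward and 7.02% downward. These included 5 of the 6 segments above (not Igkv19-93). The other 6 fell, with log2 differences from -1.26 (Igkv1-99) to -0.52 (Igkv14-111). Igkv1-117, the leading kappa segment, held 4.62%, 4.51% and 3.73% in young and 3.48%, 2.21% and 3.24% in old libraries, with a blocked log2 difference of -0.55 ± 0.15 (adjusted p = 0.0327). Igkv1-135 was at -0.66 ± 0.18 (adjusted p = 0.0337) and Igkv14-111 at -0.52 ± 0.15 (adjusted p = 0.0418) in the same fit. When the blocked fit was scaled by TMM factors over the segments in place of the V total, 4 members passed, beside 14.9% of all genes. Igkv5-39 and Igkv6-20 passed upward and Igkv12-46 and Igkv6-23 downward. The other 7, Igkv1-117, Igkv1-135 and Igkv14-111 among them, did not pass on that scale. The ranges did not overlap for 2 members in the higher direction, beside 9.17% of all genes, and for 13 in the lower, which is 12.9% of those tested beside 7.02% of all genes.

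These calls concern usage, not the level of the segment RNA. Tested as levels, on TMM library size, 0 of 101 segments passed, beside 2.01% of all genes called in that fit. At an unadjusted p under 0.05 there were 8 segments, or 7.92%, beside 11.6% of all genes. DESeq2 on levels called 1 (5.11% of all genes). The level of Igkv5-39 was at a log2 difference of 1.36 ± 0.46 (adjusted p = 0.215), close to its usage difference but with a wider error. With only the 6 wild-type libraries in the usage fit, 0 of 100 segments passed and 1 of 13234 genes did.

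**Figure D4:**
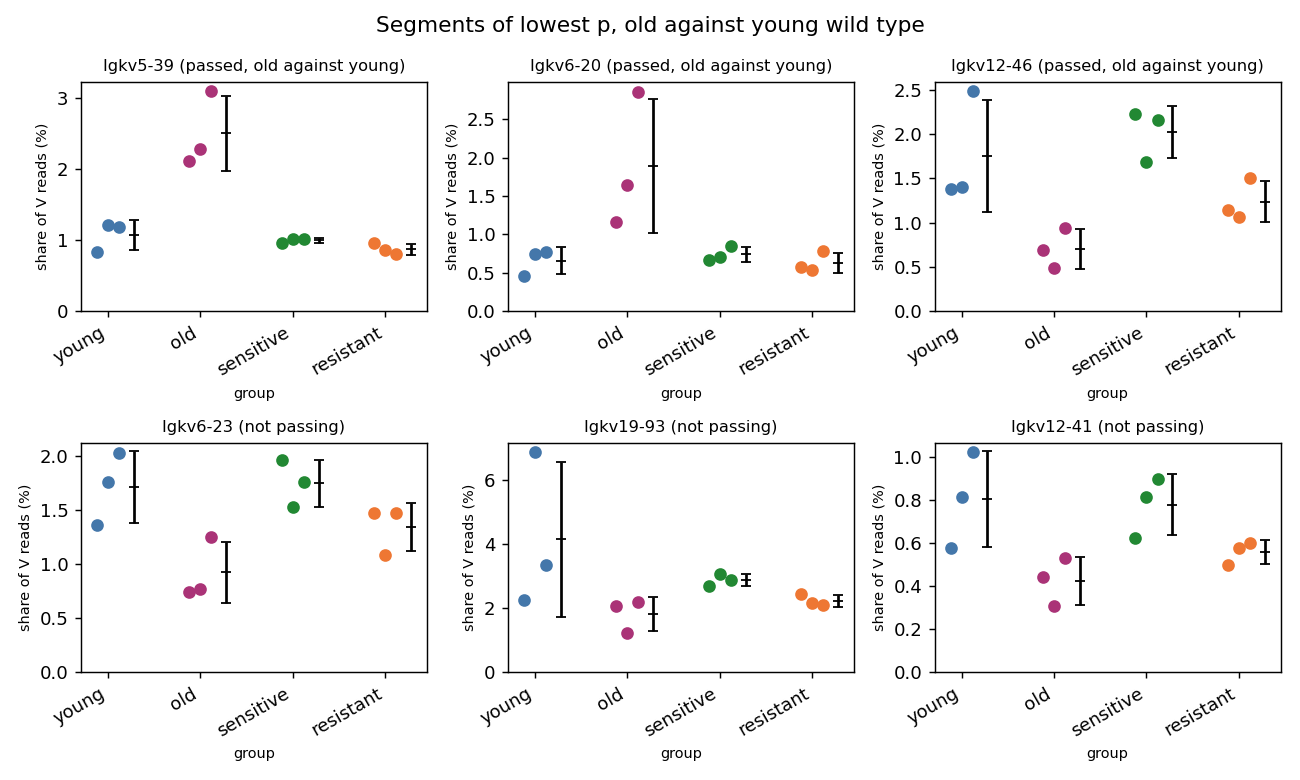
Usage (percent of light chain V reads) of the 6 segments of lowest p between old and young wild type, in each library (points) of the 4 groups with the group mean and SD (bars, n = 3). Igkv5-39 and Igkv6-20 are higher in old libraries, Igkv12-46 lower, and the 3 segments in the lower row did not pass.

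The kappa to lambda ratio did not separate the ages. It was 2.55, 4.83 and 5.68 in young (4.35 ± 1.62, SD, n = 3) and 2.58, 3.34 and 4.89 in old libraries (3.61 ± 1.18), a log2 difference of -0.24 (exact permutation p = 0.80). The lowest ratio of each group was that of the 24 March pair, where Iglv3 held 23.0% and 22.6% of the reads against 3.93% to 12.6% in the other 10 libraries. In CPM the Iglv3 level of that pair was 209 and 193, inside the range of 103 to 243 over the other libraries, while their summed V level was the lowest. Without Iglv3 the ratio was 13.9, 11.9 and 11.1 in young and 13.5, 4.03 and 13.1 in old libraries, and 1 old library lay far below the rest. The kappa joining segments Igkj1 to Igkj5 were also high in the 24 March pair, at 514 and 345 CPM in sum against 140 to 258 CPM elsewhere. Whether the features of that pair bear on its Iglv3 share was not tested.

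The old library with the low ratio was old 2, and it was unlike every other library. Iglv2 took 16.1% and Igkv8-28 14.9% of its V reads, together 31.0%. The median over the other 11 libraries was 1.85% for Iglv2 and 0.658% for Igkv8-28, so the shares in old 2 were 8.73 and 22.6 times as high. Igkv17-127 (6.24%) and Igkv4-63 (1.51%) were also raised there, at 3.19 and 6.06 times the median of the others. The log2 difference with age was 3.12 ± 0.97 for Igkv8-28 (adjusted p = 0.156) and 2.10 ± 0.74 for Iglv2 (adjusted p = 0.235).

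Old 2 also held the highest level of 7 of the 11 plasma cell markers, and the list summed to 1957 CPM against 485 to 1047 CPM in the others. Jchain, which links secreted IgM and IgA, was at 1049 CPM, and the IgA heavy chain gene Igha at 4267 CPM against 6.82 to 481 CPM elsewhere. Without Jchain the sum was 908 CPM in old 2 and 466 to 753 CPM in the others. The plasma markers summed to 485 to 931 CPM in young and 495 to 1957 CPM in old libraries, and Tnfrsf17 was at 0 in young 1 and resistant 1. Of the lambda constant regions, Iglc2 was at 399 CPM in old 2, but it was at 396 CPM in old 1 as well. The part of these cells in the shares of old 2 was not tested.

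Shares well above the segment's median were seen in other libraries too. With a limit, chosen after the values were seen, of at least 3 times the median of the other 11 libraries and at least 1% of the reads, there were 21 such cases in 9 libraries and 18 segments. The old libraries held 3, 4 and 5 of them, the young 0, 1 and 3, the sensitive 1, 0 and 0 and the resistant 1, 1 and 2. In old 3 these were Igkv3-2 (5.52%), Igkv4-57 (3.20%), Igkv6-20 (2.86%), Igkv5-39 (3.11%) and Igkv4-57-1 (2.15%), and in old 1 Igkv4-59 (3.81%), Igkv1-133 (1.51%) and Igkv4-81 (1.34%). At this limit no segment was listed in more than 1 old library, although Igkv5-39 and Igkv6-20 were above every young library in all 3 old ones. Iglv2 was listed in old 2, resistant 1 and resistant 2, and Igkv3-2 in old 3 and young 3. Young 2 held Igkv19-93 at 6.87% and young 3 held Igkv3-2 at 3.94%.

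The libraries of a group were therefore least alike in the old. The share of reads that would have to be moved to turn 1 library's usage into another's averaged 37.6% between old libraries (27.3% to 45.2%) and 21.5% between young libraries (15.3% to 27.4%). It averaged 14.2% (9.67% to 16.9%) between sensitive and 10.8% (7.00% to 13.9%) between resistant libraries. Between young and old libraries the mean was 29.6%, below that among the old themselves. The old average rests on old 2, since old 1 and old 3 differed by 27.3%, within the range of the young pairs. The order of the segments was much alike in all libraries, with Spearman rho between 0.84 and 0.98 for every pair.

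Evenness, Shannon entropy over its maximum (1 when all segments are used equally), was 0.788, 0.847 and 0.865 in young and 0.793, 0.748 and 0.845 in old libraries. The ages overlapped, with a difference of -0.0378 (exact permutation p = 0.40). In sensitive libraries it was 0.839, 0.853 and 0.865 and in resistant libraries 0.813, 0.797 and 0.833, without overlap, a difference of -0.0379 (exact permutation p = 0.10, lower in 3 of 3 pairs). As an effective number of equally used segments this was 53.3 ± 3.26 in sensitive and 44.7 ± 3.83 in resistant cells (SD, n = 3). Within kappa alone, evenness was 0.852, 0.882 and 0.879 in sensitive and 0.884, 0.885 and 0.877 in resistant libraries, and the groups overlapped. The lower evenness of resistant cells was thus not seen among kappa segments. The lowest kappa evenness of all libraries was 0.775, in old 2.

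**Figure D5:**
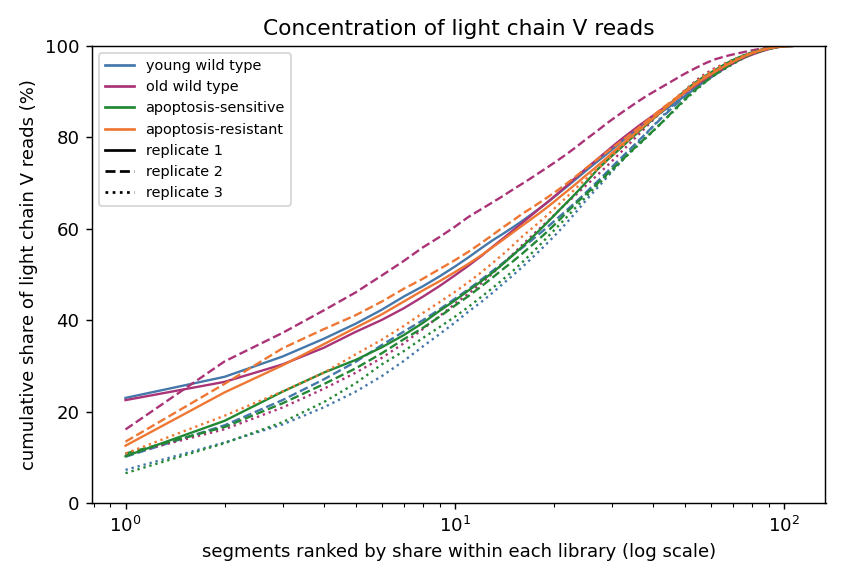
Cumulative share of light chain V reads (percent) over segments ranked by share within each library (log scale), 1 line per library with colour for group and line style for replicate. The line of old 2 lies above the others from the second rank on, and its 10 highest segments take 60.4% of the reads.

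Position in the kappa locus was described by distance from Igkj1, the first joining segment. Among the 103 kappa members, mean usage and distance had a Spearman rho of 0.06. The 52 distal segments, from 1305 to 3167 kb away, held 59.7%, 57.3% and 49.7% of kappa reads in young and 53.9%, 49.1% and 45.0% in old libraries. The groups overlapped, but each old library lay below the young library of its own collection day, with differences of -5.86, -8.15 and -4.73 percentage points. The mean difference was -6.25 points (exact permutation p = 0.20), and it was 1.15 points when the highest kappa segment of each library was left out. In sensitive libraries the distal share was 55.5%, 55.0% and 55.5% and in resistant libraries 56.0%, 57.4% and 56.7%, a difference of 1.37 points without overlap (exact permutation p = 0.10).

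By distance, the 26 segments nearest to Igkj1 (18.7 to 584 kb) held 23.0% ± 2.61 of kappa reads in young, 30.1% ± 6.99 in old, 22.7% ± 1.24 in sensitive and 23.7% ± 1.05 in resistant cells (SD, n = 3). Igkv8-28 lies among these and old 2 reached 36.8% there. The 25 farthest held 33.9% ± 6.44, 30.4% ± 3.19, 33.3% ± 5.05 and 37.8% ± 1.02. Within collection days, old minus young was 2.12, 14.5 and 4.73 percentage points in the nearest set and -7.88, -1.33 and -1.26 in the farthest. Each set thus moved 1 way in 3 of 3 pairs, which was not tested, and the mean difference in the nearest set was 7.11 points.

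The difference between the age effect and the genotype effect was tested in the same fit, and 0 of 101 segments passed, beside 0.265% of all genes. There were 6 members at an unadjusted p under 0.05, or 5.94%, beside 6.89% of all genes. DESeq2 called 3 (1.94% of all genes), and the fit with collection day as a block called 3 (7.01% of all genes). These were Igkv5-39, Igkv6-20 and Iglv1 in the blocked fit, with adjusted p of 0.00222, 0.00206 and 0.0127. Without the block Igkv5-39 was at 1.40 ± 0.29 (adjusted p = 0.0919), Iglv1 at -1.34 ± 0.30 (adjusted p = 0.134) and Igkv6-20 at 1.75 ± 0.46 (adjusted p = 0.202). Iglv1 held 3.87%, 5.52% and 5.99% in young and 4.00%, 2.96% and 4.76% in old libraries, and these overlapped. Igkv9-120 was at -0.58 ± 0.26 (adjusted p = 0.722), and the values of Igkv1-122 and Igkv8-28 followed resistant 3 and old 2.

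Between sensitive and young wild-type cells, which share no collection day, 0 of 101 segments passed, beside 0% of all genes tested. There was 1 member at an unadjusted p under 0.05, or 0.99%, beside 2.74% of all genes, and DESeq2 called 0 (0.103% of all genes). That member was Igkv4-72 (log2 2.09 ± 0.79, adjusted p = 0.823), which was high in sensitive 1. The other segments of low p, all with an adjusted p of 0.823, were Igkv6-13 (1.0 ± 0.48), Igkv4-58 (0.67 ± 0.41), Igkv19-93 (-0.54 ± 0.34), Igkv4-70 (-0.85 ± 0.58) and Igkv5-43 (0.26 ± 0.18). The ranges did not overlap for 3 members in the higher direction, beside 4.58% of all genes, and 1 in the lower, beside 4.25%. Among the first was Iglv2, at 1.85% to 1.88% in sensitive and 1.3% to 1.69% in young libraries. The kappa to lambda ratio differed by 0.30 on the log2 scale (exact permutation p = 0.70) and evenness by 0.0189 (exact permutation p = 0.60).

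In old against young mice, 3 of the 17 tested light chain assembly genes had an unadjusted p under 0.05, all toward lower values in old cells. Rag1 was at 3.78, 5.35 and 20.2 CPM in young and 0.98, 0.15 and 1.5 CPM in old libraries, without overlap (log2 -3.47 ± 0.83, adjusted p = 0.0572). Vpreb1, part of the surrogate light chain of precursor cells, was at -2.96 ± 0.85 (adjusted p = 0.118) and Rag2 at -3.63 ± 1.05 (adjusted p = 0.121). Both had very few reads. Vpreb1 was at 0.33 to 1.58 CPM in young and at most 0.20 CPM in old libraries, and Rag2 at 0.08 to 0.92 and at most 0.05 CPM. Precursor markers in sum were at 37.8 to 72.3 CPM in young and 16.6 to 27.9 CPM in old libraries, without overlap. Within the list, Cd93 was at 29.3 to 36.1 and 9.51 to 13.6 CPM. Not every member was lower in old cells. Kit was at 0.74, 0.21 and 4.55 CPM in young and 3.28, 5.17 and 6.12 CPM in old libraries. Il7r overlapped, at 1.54 to 5.01 and 1.28 to 5.32 CPM. Vpreb1 and Rag2 were at 0 in old 2. The part of precursor cells in the usage differences with age was not tested. The joining segments Iglj1 to Iglj3 were at 1.72 to 14.5 CPM in every library, and Vpreb3 at 12.0 to 102 CPM.

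The 5 members not tested, for low counts, were Igkv8-26 (120 reads over all libraries), Igkv7-33 (64), Igkv20-101-2 (42), Igkv1-35 (20) and Igkv13-71-1 (10). Igkv13-71-1 was the 1 member annotated as a pseudogene, and the 59 other RefSeq Igkv and Iglv genes, all of them pseudogenes, had no entry in the table as used here.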

How the data were processed

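RNA of the 12 libraries was polyadenylated RNA made into TruSeq v2 libraries, per the labels' protocols. The values were whole-number read counts per Entrez gene as deposited by the authors. Subread, featureCounts and build mm10 are named in the submitters' processing notes. Versions, annotation, strand and the handling of multi-mapping reads are not given in the sources used here. Symbols and locus positions came from RefSeq (GRCm38.p6) and sequences from GENCODE M21. Recombination signals, promoters and proteins of the segments were not analysed here.

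Genes were filtered with filterByExpr in edgeR 4.0.16 (R 4.3.3), which left 13592, and scaled by TMM. Usage was tested by edgeR's robust quasi-likelihood test on all 12 libraries by group, with the log of the light chain V total as the offset of each segment and the TMM library size for other genes. P-values were adjusted over all genes by the Benjamini-Hochberg method (threshold 0.05). Library measures were compared by exact two-sided permutation. The text names the 3 Iglv members, the 10 most used Igkv members, the top member of each library, per comparison the members that passed or the 6 of lowest p, and a list of other light chain genes. Other names were chosen after their values were seen. The members and lists were chosen with earlier results of these data known. The labels give same-numbered libraries the same collection day, which pairs them. Their deviations from the group means correlated at 0.43 to 0.82 across genes in the 6 pairs. Across the segments alone the correlations were lower. They were 0.46, 0.25 and 0.14 in the wild-type pairs and -0.04, 0.16 and 0.01 in the Bak-/- pairs. The label year is 2006 for the 24 March pair and 2016 for the rest. The series calls the libraries of a group biological replicates. Alternatives were other scalings, DESeq2 1.42.0, no low-count filter, fewer libraries and the replicate block. The tests were tested on simulated counts.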

Additional observations from a re-analysis of the deposited data

Results flagged for a closer look

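The distal share of kappa reads moved in opposite directions in the 2 contrasts. It was lower in the old library of all 3 wild-type pairs and higher in the resistant library of all 3 Bak-/- pairs. The age effect minus the genotype effect was -7.62 percentage points. This difference was not tested. The age effect itself was -6.25 points and turned to 1.15 points without the highest kappa segment of each library, and the genotype effect was 1.37 points.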

How the results depend on the processing

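Segments called with age were 3. They were 0 on TMM library size and 0 with only the libraries compared, 7 with DESeq2, 1 with DESeq2 on levels, and 1 to 3 without 1 library (1 without young 2, young 3 or old 2). With the replicate block they were 11, also 11 for shares of kappa reads, 10 on levels, and 4 with TMM factors over the segments. Of all 13592 genes, 278 were called with age in the main fit and 273 on TMM library size. DESeq2 called 702 and, on levels, 695, and the blocked fits 2025 to 2029. Fits without 1 library called 84 to 239 of 13867 to 14085 genes. Igkv12-46 was lost with TMM factors over the segments (adjusted p = 0.109). The genotype calls, 0, became 1 with DESeq2, 1 with only the libraries compared, and with the replicate block 2 (levels 2, shares of kappa reads 2, TMM factors over the segments 1). They were 0 in each fit without 1 library. Of all genes, DESeq2 called 136 with genotype, the fit with only the libraries compared 5 of 12657, and the blocked fits 462 to 463. The calls for age minus genotype, 0, became 1 with TMM factors over the segments and 3 with DESeq2. They became 3 with the block (levels 4, TMM factors over the segments 3, shares of kappa reads 7) and 2 without the 24 March pair. Without 1 library they were 0 to 1, with Iglv1 passing without young 1 and Iglv2 without old 2. Of all genes, 37 were called for age minus genotype with TMM factors over the segments and 264 with DESeq2. The blocked fits called 953 to 959, the fit without the 24 March pair 76 of 13757, and fits without 1 library 2 to 39.

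For sensitive against young, the log2 kappa to lambda difference of 0.30 turned to -0.25 without Iglv3 and to -0.0446 without young 1, which is also the value without the 24 March pair. Its evenness difference of 0.0189 turned to -0.00348 without the top member, -0.00434 in kappa alone and -0.00374 without young 1 or the 24 March pair. The evenness difference with genotype turned to 0.0110 in kappa alone, and the distal share with age to 1.15. The log2 V level with age (0.10) turned to -0.26 without young 1 and -0.40 without old 2. For sensitive against young, Igkv4-72 turned to -0.0778 without sensitive 1 (range without 1 library -0.0778 to 2.56), Igkv19-93 to 0.0360 without young 2 (-0.832 to 0.0360) and Igkv4-70 to 0.381 without young 3 (-1.23 to 0.381). The cause was not tested. Without 1 library at a time, the log2 ratio ran from -0.59 to -0.01 with age, from -1.26 to -0.92 with genotype and from -0.0446 to 0.53 for sensitive against young. Evenness ran from -0.0626 to -0.0143, from -0.0474 to -0.0292 and from -0.00374 to 0.0346. The distal share ran from -9.17 to -4.09 points with age and from 1.03 to 1.70 with genotype, and the log2 V level from -0.40 to 0.55 and from 0.13 to 0.25.

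The other 161 comparisons of main values were counted as the same. For a library measure this meant the same direction only, whatever its size or p. For a number of calls it meant an equal or close number. For single segments, 400 values had the same direction and side of the threshold, or no adjusted p. Of the single segments 39 came to pass and 20 no longer passed. With 3 libraries a group, no library measure could reach an exact p under 0.10, and the share of rare segments is limited by the 11041 V reads of young 1. The alternatives chosen after seeing the data were those without the 24 March pair or Iglv3, in kappa alone, on shares of kappa reads, levels with DESeq2, and the block joined to another scaling.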
